A study of Mus musculus with 12 samples.

Results

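Amino acid catabolism and the urea cycle are represented here by 44 genes, chosen by symbol, of which 40 were measured among the 12393 genes tested. Each gene was read from 1 probe set, its brightest on average. Ass1, the enzyme that joins citrulline to aspartate, has a single probe set that is annotated to another gene as well, and Sds, Gls2 and Amt have no probe set in the annotation used, so these 4 genes were not analysed here. The liver is the main site where amino acids from food and from protein turnover are broken down. Aminotransferases move the amino groups to a common pool, the carbon skeletons enter energy or glucose metabolism, and the urea cycle turns the freed ammonia into urea. Many of these enzymes are made mainly by hepatocytes near the portal vein, and several follow feeding, glucagon and glucocorticoids.

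Whole livers of female C57BL/6 mice, 8 to 12 weeks old, were measured on Affymetrix Mouse430A arrays in 4 groups of 3. The groups were mice with deletion of HDAC6 (HDAC6 knockout), mice with deletion of HDAC9 (HDAC9 knockout), wild-type mice on a high-fat diet with 60% of kcal from fat, and wild-type mice on regular chow with 25% of kcal from fat. HDAC6 and HDAC9 belong to the histone deacetylase family. HDAC6 takes acetyl groups off lysines, mainly in the cytoplasm. The labels give no diet for the knockouts and do not say whether each array came from its own mouse, so diet and genotype cannot be told apart in the knockout comparisons, and a p-value reflects only how these samples vary, which may be technical. All levels below are log2 values after robust multi-array averaging (RMA), and values listed for a group are in the order of replicates 1, 2 and 3. In whole tissue, fewer cells of a type and less RNA per cell cannot be told apart.

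Array medians lay between 5.78 and 5.86, and hepatocyte markers averaged between 13.45 and 13.56 on every array. Hdac6 read 6.17, 6.16 and 6.50 in HDAC6 knockout livers, against 7.89, 7.98 and 7.86 in chow livers (log2 fold change -1.63, SE 0.133, adjusted p = 6.79e-05 in limma). Hdac9 read between 4.04 and 4.53 on all 12 arrays, and so did not check the HDAC9 label. HDAC9 knockout replicate 2 carried transcripts of the exocrine pancreas, with a mean of 8.57 over 11 of 17 listed markers that were measured. HDAC9 knockout replicate 1 was next, at 5.26, and the remaining arrays read 4.34 to 4.89. The median deviation of these markers from their means over the 12 arrays was 3.72 on replicate 2 and 0.33 on replicate 1. It was -0.64 to -0.19 on the remaining arrays. On chow replicate 2, 115 of 22626 probe sets lay more than 1 log2 unit below every other array, against at most 4 on any other array. Differences and counts that moved most with HDAC9 knockout replicate 2 or chow replicate 2 are given with and without them.

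The 4 enzymes of histidine breakdown hold the member with the smallest p-value in both knockout comparisons with chow, Hal. Their promoters are therefore printed. Hal (histidine ammonia-lyase) makes urocanate, Uroc1 (urocanate hydratase) converts it, Amdhd1 (imidazolonepropionase) opens the ring, and Ftcd hands the remaining formimino group to folate. RefSeq gave promoters for 34 of the 40 measured genes, 39 promoters in all, on GRCm38.p6, each running 5′ to 3′ from 250 bases before to 50 bases after a gene's start. The Hal window is chr10:93488518-93488817 (plus strand), and that of Amdhd1 is chr10:93539984-93540283 (minus strand). No other RefSeq gene lies between Hal and Amdhd1. The Uroc1 window is chr6:90333039-90333338 and the Ftcd window is chr10:76575398-76575697, both on the plus strand. Capitals mark matches to the motifs named after the sequences.
Hal: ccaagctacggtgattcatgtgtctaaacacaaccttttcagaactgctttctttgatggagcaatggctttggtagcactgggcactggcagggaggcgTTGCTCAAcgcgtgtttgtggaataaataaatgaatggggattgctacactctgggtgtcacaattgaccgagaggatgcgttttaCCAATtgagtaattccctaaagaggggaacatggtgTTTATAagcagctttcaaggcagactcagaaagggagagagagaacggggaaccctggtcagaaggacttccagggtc
Amdhd1: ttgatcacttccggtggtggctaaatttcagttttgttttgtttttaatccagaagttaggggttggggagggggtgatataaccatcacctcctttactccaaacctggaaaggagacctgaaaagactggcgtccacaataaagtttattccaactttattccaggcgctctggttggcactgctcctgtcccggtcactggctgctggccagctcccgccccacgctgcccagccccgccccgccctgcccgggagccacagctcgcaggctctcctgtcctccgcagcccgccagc
Uroc1: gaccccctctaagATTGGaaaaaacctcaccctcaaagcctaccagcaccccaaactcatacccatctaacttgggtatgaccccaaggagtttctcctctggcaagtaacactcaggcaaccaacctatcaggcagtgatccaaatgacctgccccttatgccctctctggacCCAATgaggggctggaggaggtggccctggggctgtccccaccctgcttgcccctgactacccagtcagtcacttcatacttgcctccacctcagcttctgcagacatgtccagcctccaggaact
Ftcd: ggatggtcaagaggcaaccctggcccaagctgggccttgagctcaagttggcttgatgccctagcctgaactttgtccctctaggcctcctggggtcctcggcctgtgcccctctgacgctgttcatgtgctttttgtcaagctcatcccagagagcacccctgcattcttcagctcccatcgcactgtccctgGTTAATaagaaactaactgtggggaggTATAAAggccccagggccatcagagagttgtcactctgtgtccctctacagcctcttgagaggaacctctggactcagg

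The motifs were searched on both strands. The TATA box (TATAAA) matched in Ftcd and, on the other strand, in Hal, and the C/EBP site (TTGCNNAA) matched in Hal. The CCAAT box (CCAAT) matched in Hal and at 2 places in Uroc1, 1 of them on the other strand. A partial HNF1 site (GTTAAT), not the whole site, matched in Ftcd. Amdhd1 held no match in this window, and no marked stretches overlapped in these 4 promoters. Over the 39 member promoters the TATA box was found in 15.4%, against 13.6% of all 32851 promoters of the same length. The shares were 10.3% of member promoters against 10.8% of all for the C/EBP site. They were 10.3% against 7.10% for the partial HNF1 site, and 56.4% against 37.4% for the CCAAT box. The HNF4 site (CAAAGTCCA) and the cAMP response element (TGACGTCA) were in 0 member promoters, against 0.475% and 1.79% of all. These matches describe letters and were not tested as binding sites.

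**Figure D1:**
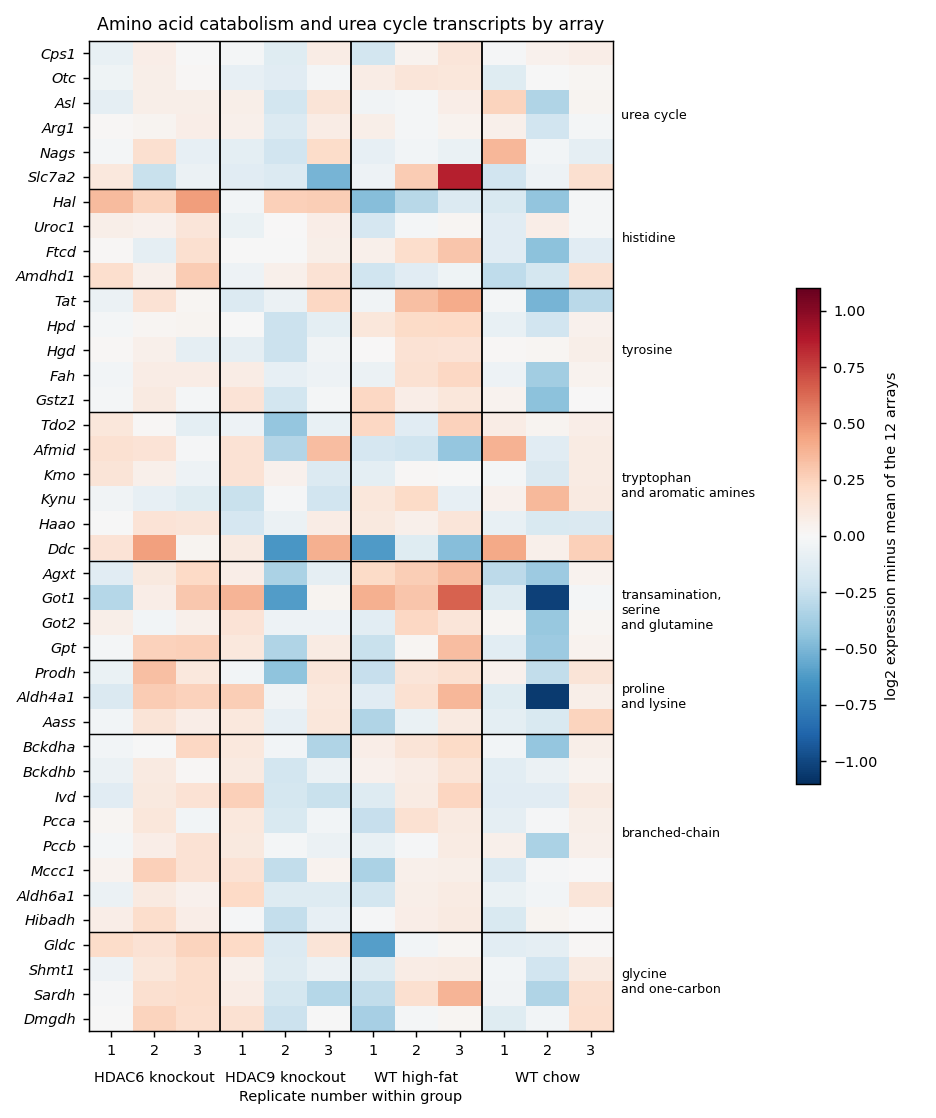
Log2 expression of the 40 measured genes on each of the 12 arrays, as colour for the difference from the gene's mean over the 12 arrays. Rows are genes by pathway, and columns are HDAC6 knockout, HDAC9 knockout, high-fat and chow arrays with replicate numbers. Blue columns are visible for HDAC9 knockout replicate 2, high-fat replicate 1 and chow replicate 2, and the deepest blue cells are Got1 and Aldh4a1 on chow replicate 2.

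In no comparison did a gene of this set pass the threshold of adjusted p under 0.05 (limma, Benjamini-Hochberg adjustment over 12393 genes). The share of all genes called was itself small, at 0.0161% in HDAC6 knockout against chow, 0.0968% in HDAC9 knockout against chow and 0.29% in high-fat against chow. It was 0.00807% in HDAC9 knockout against HDAC6 knockout, 0.145% in high-fat against HDAC6 knockout and 0.436% in high-fat against HDAC9 knockout. The smallest adjusted p of a member was 0.0544, for Hal in high-fat against HDAC6 knockout livers. Most of the differences that were measured were small. Against chow, 2 members differed by more than 1.5-fold in high-fat livers, and 0 did in either knockout. In the 3 comparisons with chow, the 95% confidence interval of the difference lay wholly within 1.5-fold for 35 members in the HDAC6 knockout, 35 in the HDAC9 knockout and 32 in the high-fat group. The share of all genes with such intervals was not computed. The median SE of a difference was 0.122 over the members and 0.124 over all genes, so the intervals were about as wide for other genes. The 3 comparisons share the chow arrays, so their values for a gene are not independent of each other.

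**Figure D2:**
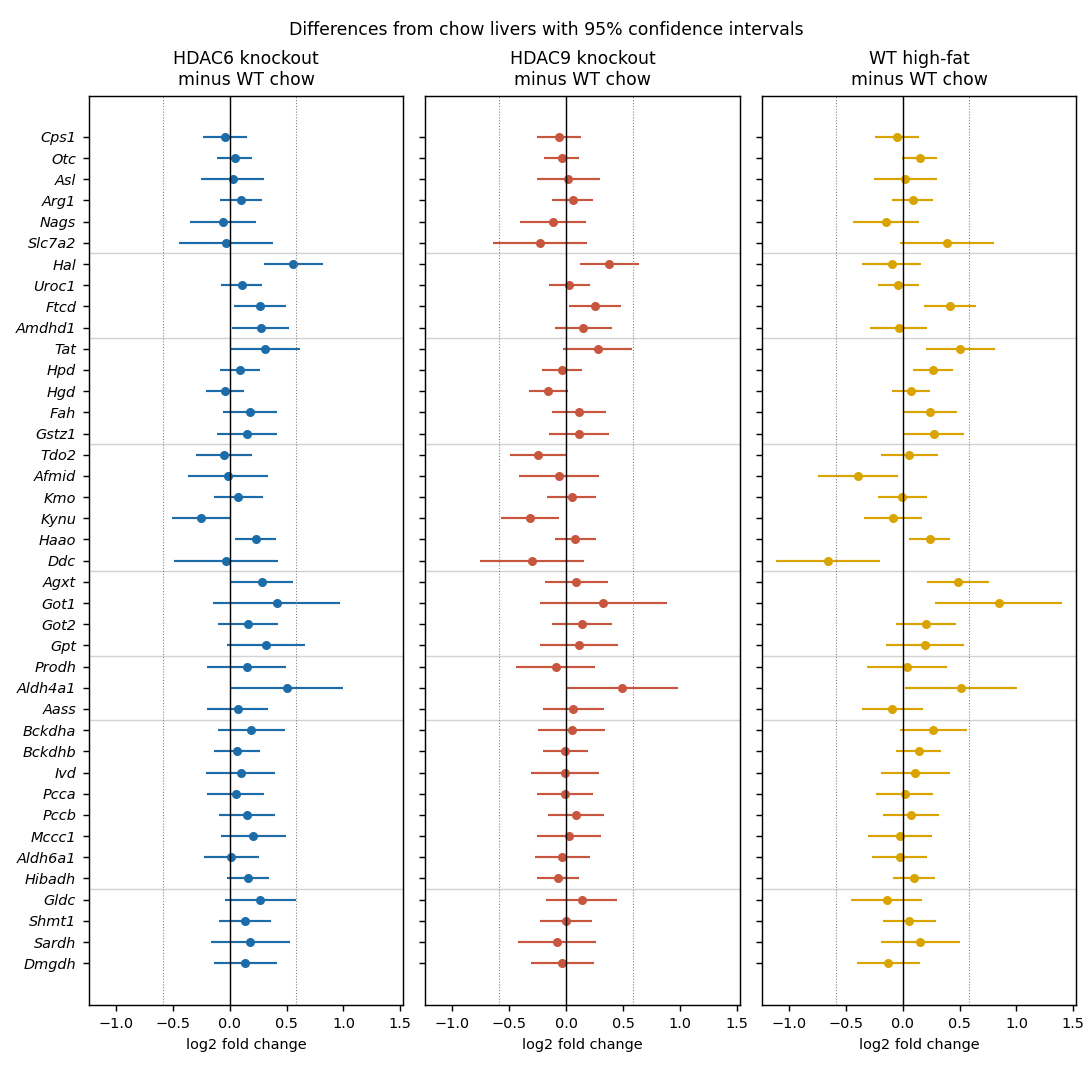
Log2 fold changes of the 40 measured genes (points) with 95% confidence intervals from limma (lines), for HDAC6 knockout, HDAC9 knockout and high-fat livers, each minus chow. Dotted lines mark 1.5-fold, and grey lines separate pathways. Most intervals cross 0, and those of Hal in the HDAC6 knockout and of Got1, Agxt, Tat and Ftcd in the high-fat group lie above it, while that of Ddc in the high-fat group lies below it.

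The comparison of HDAC6 knockout with chow livers asked whether loss of this deacetylase went with other levels of the catabolic enzymes. The group mean was higher in HDAC6 knockout than in chow livers for 32 of the 40 genes and lower for 8, where 45.6% of all genes had a higher mean. The median log2 fold change was 0.14 over the members and -0.014 over all genes. An unadjusted p under 0.05 was reached by 7 members (17.5%), all with higher means in HDAC6 knockout livers, against 5.77% of all genes. The arrays of the 2 groups did not overlap for 7 members (17.5%), 6 higher and 1 lower, against 10.1% of all genes. The count of 7 at an unadjusted p under 0.05 was 2 without chow replicate 2 and 2 without HDAC6 knockout replicate 3. It was 3 without HDAC6 knockout replicate 2 and 9 without chow replicate 3. Without chow replicate 2 the count of higher means was 28 and the median was 0.052.

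Histidine breakdown held the smallest p-value in HDAC6 knockout livers, and all 4 enzymes had higher means than in chow, with a median log2 fold change of 0.27. Hal read 11.64, 11.54 and 11.76 in HDAC6 knockout livers, against 11.13, 10.86 and 11.27 in chow livers. All 3 knockout arrays lay above all 3 chow arrays. The difference was 0.56 (SE 0.122, 1.47-fold) and did not pass (adjusted p = 0.292), and it was 0.45 without chow replicate 2. Ftcd read 11.03, 10.91 and 11.18 in HDAC6 knockout livers, against 10.89, 10.56 and 10.88 in chow livers, also without overlap. Its difference of 0.26 (SE 0.106) did not pass (adjusted p = 0.810) and was 0.16 without chow replicate 2. Amdhd1, the neighbour of Hal, read 10.63, 10.50 and 10.73 in HDAC6 knockout livers, against 10.17, 10.25 and 10.62 in chow livers, and the groups overlapped through chow replicate 3. Uroc1 averaged 11.87 ± 0.05 in HDAC6 knockout livers and 11.76 ± 0.10 in chow livers (SD, n = 3 each), with overlap. Hal is also on the list of periportal hepatocyte markers, of which 6 of 8 were measured. That list averaged 10.61 to 10.82 on HDAC6 knockout arrays and 10.35 to 10.67 on chow arrays, and its part in the Hal values was not tested.

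Agxt, Got1, Got2 and Gpt are the aminotransferases of the set besides Tat, which is described with tyrosine breakdown. They pass amino groups between amino acids and keto acids, and all 4 had higher means in HDAC6 knockout than in chow livers (median 0.302). Agxt (alanine-glyoxylate aminotransferase) read 11.29, 11.51 and 11.63 in HDAC6 knockout livers, against 11.12, 11.01 and 11.45 in chow livers. The groups overlapped, and the difference of 0.28 (SE 0.129) did not pass (adjusted p = 0.852) and was 0.19 without chow replicate 2. Got1, the cytosolic aspartate aminotransferase, read 10.35, 10.73 and 10.95 in HDAC6 knockout livers, against 10.52, 9.63 and 10.63 in chow livers. Chow replicate 2 was the lowest of the 12 arrays for Got1, and the groups overlapped. Gpt (alanine aminotransferase) averaged 11.19 ± 0.16 in HDAC6 knockout livers and 10.87 ± 0.22 in chow livers, and Got2, the mitochondrial aspartate aminotransferase, 11.92 ± 0.05 and 11.76 ± 0.26 in the same order (SD, n = 3 each).

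Tyrosine breakdown runs from Tat (tyrosine aminotransferase) through Hpd, Hgd and Gstz1 to Fah (fumarylacetoacetase). The mean was higher in HDAC6 knockout livers than in chow livers for 4 of the 5. Tat read 11.44, 11.67 and 11.53 in HDAC6 knockout livers, against 11.48, 11.0001 and 11.21 in chow livers, with overlap. Its difference of 0.31 (SE 0.141) did not pass (adjusted p = 0.846) and was 0.20 without chow replicate 2. Hgd (homogentisate dioxygenase) averaged 12.28 ± 0.08 in HDAC6 knockout livers and 12.32 ± 0.03 in chow livers (SD, n = 3 each).

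The kynurenine route of tryptophan went both ways, with 2 of the 6 genes of the tryptophan and aromatic amine group higher in mean in HDAC6 knockout livers and 4 lower. Haao, which oxidises 3-hydroxyanthranilate on the way to NAD, read 11.64, 11.79 and 11.77 in HDAC6 knockout livers, against 11.56, 11.47 and 11.48 in chow livers. The arrays did not overlap, and the difference of 0.23 (SE 0.085) did not pass (adjusted p = 0.760). Kynu (kynureninase) was the 1 member whose knockout arrays all lay below the chow arrays, at 5.05, 5.003 and 4.95 in HDAC6 knockout livers, against 5.14, 5.45 and 5.19 in chow livers. Tdo2 (tryptophan dioxygenase), the first enzyme of the route, averaged 12.62 ± 0.12 in HDAC6 knockout livers and 12.67 ± 0.03 in chow livers (SD, n = 3 each).

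Proline and lysine breakdown (3 genes), branched-chain amino acid breakdown (8 genes) and the glycine and folate-linked enzymes (4 genes) each had a higher mean in HDAC6 knockout livers for all members. Their medians were 0.15, 0.12 and 0.16. For Shmt1 the direction depended on the probe set: 0.14 by the one used, and -0.086, -0.066 and 0.997 by the others. The last of these was the probe set that was low on chow replicate 2. Aldh4a1, which makes glutamate from the proline intermediate, read 8.88, 9.32 and 9.30 in HDAC6 knockout livers, against 8.91, 7.99 and 9.11 in chow livers. Chow replicate 2 was the lowest of the 12 arrays. The difference of 0.50 (SE 0.23) did not pass (adjusted p = 0.852) and was 0.16 without that array. Gldc, the glycine-cleaving subunit of the glycine cleavage system, read 9.81, 9.77 and 9.85 in HDAC6 knockout livers, against 9.49, 9.51 and 9.62 in chow livers, without overlap. Hibadh and Mccc1, enzymes of valine and leucine breakdown, also did not overlap. Hibadh read 12.23, 12.35 and 12.23 in HDAC6 knockout livers, against 11.99, 12.19 and 12.16 in chow livers. Mccc1 read 9.36, 9.59 and 9.48 in HDAC6 knockout livers, against 9.17, 9.31 and 9.33 in chow livers.

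The urea cycle genes lay close to chow in HDAC6 knockout livers. Of its 6 measured genes 3 had higher and 3 lower means than in chow, with log2 fold changes from -0.056 to 0.099 and none at an unadjusted p under 0.05. Cps1, which makes carbamoyl phosphate from ammonia, averaged 13.26 ± 0.08 in HDAC6 knockout livers and 13.30 ± 0.04 in chow livers. Otc, which makes citrulline, averaged 12.52 ± 0.06 in HDAC6 knockout livers and 12.47 ± 0.08 in chow livers. Arg1 (arginase), which releases urea, averaged 13.01 ± 0.03 in HDAC6 knockout livers and 12.91 ± 0.14 in chow livers (SD, n = 3 each in these comparisons).

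**Figure D3:**
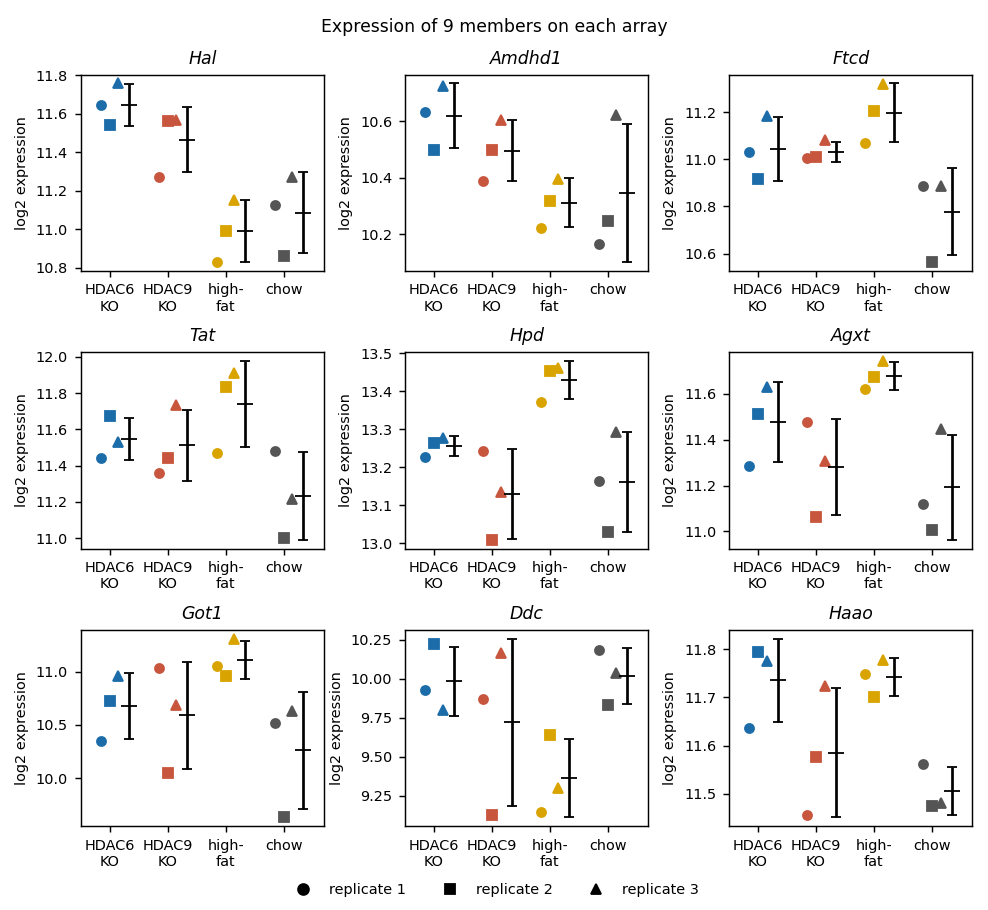
Log2 expression of 9 genes on each array (points, 3 replicates by symbol), with the group mean and SD beside them (dash and bar), for HDAC6 knockout, HDAC9 knockout, high-fat and chow livers. Axes differ between panels and do not start at 0. Hal lies at 11.54 to 11.76 in HDAC6 knockout livers and at 10.83 to 11.15 in high-fat livers, and Got1 is lowest on chow replicate 2, at 9.63.

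In HDAC9 knockout livers the set as a whole lay close to chow. The mean was higher in HDAC9 knockout livers for 21 of 40 genes, where 46% of all genes had a higher mean, and the median log2 fold change was 0.023 over the members and -0.014 over all genes. An unadjusted p under 0.05 was reached by 3 members (7.5%), 2 higher and 1 lower, against 6.08% of all genes. The arrays did not overlap for 4 members (10%), 1 higher and 3 lower, against 12.6% of all genes. The count of higher means was 10 and the median -0.031 without chow replicate 2. Without HDAC9 knockout replicate 2 the count was 30 and the median 0.072, and without both arrays the count was 25. The count of 3 was 1 without chow replicate 2, 1 without both arrays, and 5 without HDAC9 knockout replicate 2, chow replicate 1 or chow replicate 3.

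Hal read 11.27, 11.56 and 11.57 in HDAC9 knockout livers, against 11.13, 10.86 and 11.27 in chow livers, and the groups overlapped narrowly. Its difference of 0.38 (SE 0.122, 1.30-fold) did not pass (adjusted p = 0.607). It was 0.27 without chow replicate 2 and 0.22 without chow replicate 2 and HDAC9 knockout replicate 2. Ftcd read 11.004, 11.01 and 11.08 in HDAC9 knockout livers, all above the chow values of 10.89, 10.56 and 10.88, with a difference of 0.25 (SE 0.106) that did not pass (adjusted p = 0.763). It was 0.15 without chow replicate 2. Uroc1 and Amdhd1 averaged 11.79 ± 0.07 and 10.50 ± 0.11 in HDAC9 knockout livers, against 11.76 ± 0.10 and 10.35 ± 0.24 in chow livers (SD, n = 3 each). The periportal list, which holds Hal, averaged 10.56 to 10.85 on HDAC9 knockout arrays and 10.35 to 10.67 on chow arrays. Its part was not tested.

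The 3 members whose HDAC9 knockout arrays all lay below the chow arrays were of tryptophan and tyrosine breakdown. Kynu read 4.85, 5.08 and 4.88 in HDAC9 knockout livers, against 5.14, 5.45 and 5.19 in chow livers, without overlap. The difference of -0.32 (SE 0.119) did not pass (adjusted p = 0.728) and was -0.23 without chow replicate 2, and the gene is read at low intensity, under the median of 6.39 over all gene means. Tdo2 read 12.56, 12.18 and 12.53 in HDAC9 knockout livers, against 12.69, 12.64 and 12.68 in chow livers. Hgd read 12.19, 12.05 and 12.25 in HDAC9 knockout livers, against 12.30, 12.31 and 12.35 in chow livers. Both were lowest on HDAC9 knockout replicate 2 and did not overlap with chow by the probe sets used. The second Tdo2 probe set did overlap, at 10.90, 9.98 and 10.82 in HDAC9 knockout livers, against 11.08, 10.85 and 10.81 in chow livers. The pathways other than histidine, tryptophan and tyrosine breakdown had medians from -0.051 for the urea cycle to 0.13 for Agxt, Got1, Got2 and Gpt, and the largest difference among them, Aldh4a1, again had the low value of chow replicate 2 in its reference.

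High-fat livers had a higher mean than chow livers for 26 of 40 genes, where 47.2% of all genes had a higher mean, with a median log2 fold change of 0.075 over the members and -0.010 over all genes. An unadjusted p under 0.05 was reached by 11 members (27.5%), 9 higher and 2 lower, against 8.48% of all genes. The arrays did not overlap for 11 members (27.5%), 9 higher and 2 lower, against 14.7% of all genes. None passed after adjustment. The count of 11 at an unadjusted p under 0.05 was 7 without high-fat replicate 3, and ran from 8 to 14 when another array was left out. The median was 0.023 without chow replicate 2, 0.021 without high-fat replicate 3 and 0.136 without high-fat replicate 1. Of the members at an unadjusted p under 0.05, the higher ones were Ftcd, Tat, Hpd, Fah, Gstz1, Haao, Agxt, Got1 and Aldh4a1, and the 2 lower ones were Ddc and Afmid.

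Agxt, Got1, Got2 and Gpt all had higher means in high-fat than in chow livers (median 0.35). Got1 read 11.05, 10.96 and 11.30 in high-fat livers, against 10.52, 9.63 and 10.63 in chow livers. The arrays did not overlap, and the difference of 0.84 (SE 0.261, 1.79-fold) was the largest of the set but did not pass (adjusted p = 0.310). It was 0.53 without chow replicate 2. Agxt read 11.62, 11.68 and 11.74 in high-fat livers, against 11.12, 11.01 and 11.45 in chow livers, without overlap. Its difference of 0.49 (SE 0.129) did not pass (adjusted p = 0.212) and was 0.39 without chow replicate 2. Got2 and Gpt averaged 11.97 ± 0.18 and 11.07 ± 0.29 in high-fat livers, against 11.76 ± 0.26 and 10.87 ± 0.22 in chow livers (SD, n = 3 each), with overlap.

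All 5 tyrosine enzymes had higher means in high-fat livers than in chow livers (median 0.27), and 4 of them reached an unadjusted p under 0.05. Tat, the first step, read 11.47, 11.84 and 11.91 in high-fat livers, against 11.48, 11.0001 and 11.21 in chow livers. High-fat replicate 1 fell just below chow replicate 1, so the groups overlapped. The difference of 0.51 (SE 0.141) did not pass (adjusted p = 0.242) and was 0.39 without chow replicate 2. Hpd, which makes homogentisate, read 13.37, 13.45 and 13.46 in high-fat livers, against 13.16, 13.03 and 13.29 in chow livers, without overlap. Its difference of 0.27 (SE 0.082) did not pass (adjusted p = 0.303) and was 0.20 without chow replicate 2. Gstz1 read 11.73, 11.57 and 11.63 in high-fat livers, against 11.54, 11.05 and 11.51 in chow livers, without overlap. Fah read 11.94, 12.17 and 12.23 in high-fat livers, against 11.95, 11.62 and 12.04 in chow livers, with overlap. For Tat, Fah and Gstz1 chow replicate 2 was the lowest of the 12 arrays.

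Ftcd stood apart from the other histidine enzymes in high-fat livers. It read 11.07, 11.20 and 11.32 in high-fat livers, against 10.89, 10.56 and 10.88 in chow livers, without overlap. The difference of 0.42 (SE 0.106, 1.34-fold) had the smallest p of a member in this comparison and did not pass (adjusted p = 0.180). It was 0.31 without chow replicate 2. Hal, Uroc1 and Amdhd1 had slightly lower means in high-fat livers, with log2 fold changes no lower than -0.097. Hal read 10.83, 10.99 and 11.15 in high-fat livers, against 11.13, 10.86 and 11.27 in chow livers, and the groups overlapped.

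Tryptophan and aromatic amine genes went both ways in high-fat livers. Ddc, the decarboxylase that makes serotonin and dopamine from their amino acid precursors, read 9.15, 9.64 and 9.30 in high-fat livers, against 10.19, 9.83 and 10.04 in chow livers, without overlap. The difference of -0.65 (SE 0.213, 1.57-fold lower) did not pass (adjusted p = 0.344) and was -0.75 without chow replicate 2. Afmid, which frees kynurenine from its formyl form, read 7.17, 7.13 and 6.93 in high-fat livers, against 7.74, 7.23 and 7.45 in chow livers, without overlap. Haao read 11.75, 11.701 and 11.78 in high-fat livers, against 11.56, 11.47 and 11.48 in chow livers, with a difference of 0.24 (SE 0.085) that did not pass (adjusted p = 0.417). Tdo2 averaged 12.73 ± 0.21 in high-fat livers and 12.67 ± 0.03 in chow livers, and Kmo, which hydroxylates kynurenine, 10.27 ± 0.07 and 10.27 ± 0.13 in the same order (SD, n = 3 each).

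In the remaining pathways, Aldh4a1 read 8.92, 9.21 and 9.41 in high-fat livers, against 8.91, 7.99 and 9.11 in chow livers. Its difference of 0.51 (SE 0.23) did not pass (adjusted p = 0.571) and was 0.17 without chow replicate 2. Of the branched-chain genes 6 of 8 had higher means (median 0.088). Bckdha and Bckdhb, the E1 subunits of the branched-chain keto acid dehydrogenase, did not overlap with chow. Bckdha read 9.80, 9.87 and 9.93 in high-fat livers, against 9.70, 9.30 and 9.79 in chow livers, and Bckdhb 10.38, 10.42 and 10.48 against 10.22, 10.27 and 10.37.

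The urea cycle in high-fat livers had 4 of 6 genes higher in mean and 0 at an unadjusted p under 0.05. Otc read 12.59, 12.64 and 12.63 in high-fat livers, against 12.38, 12.51 and 12.53 in chow livers, without overlap. By its other probe sets Otc also had higher means in high-fat livers (0.11 and 0.37), but the groups overlapped. Slc7a2, a carrier that brings arginine, lysine and ornithine into the cell, read 7.95, 8.29 and 8.86 in high-fat livers, against 7.80, 7.96 and 8.18 in chow livers, with overlap. Nags, which makes the activator of Cps1, averaged 8.79 ± 0.03 in high-fat livers and 8.93 ± 0.25 in chow livers, and Asl, which releases arginine, 11.20 ± 0.06 and 11.18 ± 0.29 in the same order (SD, n = 3 each). Of the glycine group, Gldc averaged 9.40 ± 0.35 in high-fat livers and 9.54 ± 0.07 in chow livers. Shmt1, Sardh and Dmgdh averaged 10.65 ± 0.14, 11.21 ± 0.33 and 11.15 ± 0.22 in high-fat livers, against 10.59 ± 0.15, 11.05 ± 0.25 and 11.27 ± 0.16 in chow livers (SD, n = 3 each).

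Other members had group means close together in all 4 groups (SD, n = 3 each in what follows). Prodh, the proline dehydrogenase that feeds Aldh4a1, averaged 10.67 ± 0.21 in HDAC6 knockout, 10.43 ± 0.29 in HDAC9 knockout and 10.56 ± 0.23 in high-fat livers, against 10.52 ± 0.22 in chow livers. Aass, which starts lysine breakdown, averaged 11.25 ± 0.08 in HDAC6 knockout, 11.24 ± 0.12 in HDAC9 knockout and 11.09 ± 0.22 in high-fat livers, against 11.18 ± 0.22 in chow livers. Among the branched-chain enzymes, Ivd (isovaleryl-CoA dehydrogenase of leucine breakdown) averaged 10.07 ± 0.15 in HDAC6 knockout, 9.97 ± 0.28 in HDAC9 knockout and 10.09 ± 0.19 in high-fat livers, against 9.98 ± 0.13 in chow livers. Pcca and Pccb encode the subunits of propionyl-CoA carboxylase. Pcca had means of 9.50 ± 0.08, 9.44 ± 0.14 and 9.47 ± 0.22 in HDAC6 knockout, HDAC9 knockout and high-fat livers, against 9.45 ± 0.08 in chow livers. Pccb had means of 9.48 ± 0.09, 9.42 ± 0.09 and 9.41 ± 0.08 in the same order, against 9.33 ± 0.23 in chow livers. Aldh6a1, of valine breakdown, had means of 11.39 ± 0.08, 11.34 ± 0.21 and 11.35 ± 0.16 in the same order, against 11.37 ± 0.11 in chow livers. Every one of these differences from chow had a 95% confidence interval that included 0.

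Between the knockouts, all 40 members had a lower mean in HDAC9 knockout than in HDAC6 knockout livers, where 49.7% of all genes had a higher mean in HDAC9 knockout livers. The differences were small, from -0.26 to -0.0091, with a median of -0.087 over the members and -0.00084 over all genes. An unadjusted p under 0.05 was reached by 1 member, Hibadh (2.5%), against 3.8% of all genes. Hibadh read 12.15, 11.90 and 12.07 in HDAC9 knockout livers, against 12.23, 12.35 and 12.23 in HDAC6 knockout livers. The array with the highest pancreas transcripts, replicate 2, was the lowest HDAC9 knockout array for 26 of 40 members. Without it 13 members had a higher mean in HDAC9 knockout livers and the median was -0.046. Leaving out any other array of the 2 groups gave 1 to 6 members with a higher mean. The part of the pancreas transcripts in this was not tested.

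High-fat livers were also set against each knockout. Against HDAC6 knockout livers 18 of 40 members had a higher mean in high-fat livers, where 52.1% of all genes did, and the medians were -0.0091 over the members and 0.0068 over all genes. An unadjusted p under 0.05 was reached by 6 members (15%), 1 higher and 5 lower, against 7.27% of all genes. The count was 3 without HDAC6 knockout replicate 2. Hal read 10.83, 10.99 and 11.15 in high-fat livers, against 11.64, 11.54 and 11.76 in HDAC6 knockout livers, without overlap and with the largest difference of the set between these groups. The difference of -0.66 (SE 0.122, 1.58-fold lower in high-fat livers) just missed the threshold (adjusted p = 0.0544) and passed under 5 of 9 other settings, and this pair was chosen after its values were seen. Periportal markers, Hal among them, averaged 10.38 to 10.64 on high-fat arrays and 10.61 to 10.82 on HDAC6 knockout arrays. The other genes of that list went both ways: Cyp2f2 read 11.89, 12.30 and 12.39 in high-fat livers, against 12.75, 12.67 and 12.68 in HDAC6 knockout livers. Pck1 read 11.69, 11.50 and 11.94 in high-fat livers, against 11.40, 10.93 and 11.21 in HDAC6 knockout livers. The part of this list was not tested. Amdhd1 read 10.22, 10.32 and 10.40 in high-fat livers, below all HDAC6 knockout values of 10.63, 10.50 and 10.73. The other lower members were Gldc, at 8.998, 9.57 and 9.63 in high-fat livers against 9.81, 9.77 and 9.85 in HDAC6 knockout livers, and Ddc and Afmid, whose high-fat values are given above. Ddc read 9.93, 10.23 and 9.80 and Afmid 7.52, 7.51 and 7.34 in HDAC6 knockout livers. Slc7a2 was the higher member.

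Against HDAC9 knockout livers 28 of 40 members had a higher mean in high-fat livers, where 51.4% of all genes did, and the medians were 0.074 over the members and 0.0049 over all genes. An unadjusted p under 0.05 was reached by 7 members (17.5%), 6 higher and 1 lower, against 8.1% of all genes. The count was 11 without HDAC9 knockout replicate 1. Without HDAC9 knockout replicate 2 the count of higher means was 20 and the median was -0.0043. Hal was the lower member, with HDAC9 knockout values of 11.27, 11.56 and 11.57 all above the high-fat values. It did not pass (adjusted p = 0.135). The higher members were Otc, Slc7a2, Hpd, Hgd, Tdo2 and Agxt. Slc7a2 read 7.95, 8.29 and 8.86 in high-fat livers, against 7.88, 7.86 and 7.50 in HDAC9 knockout livers.

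**Figure D4:**
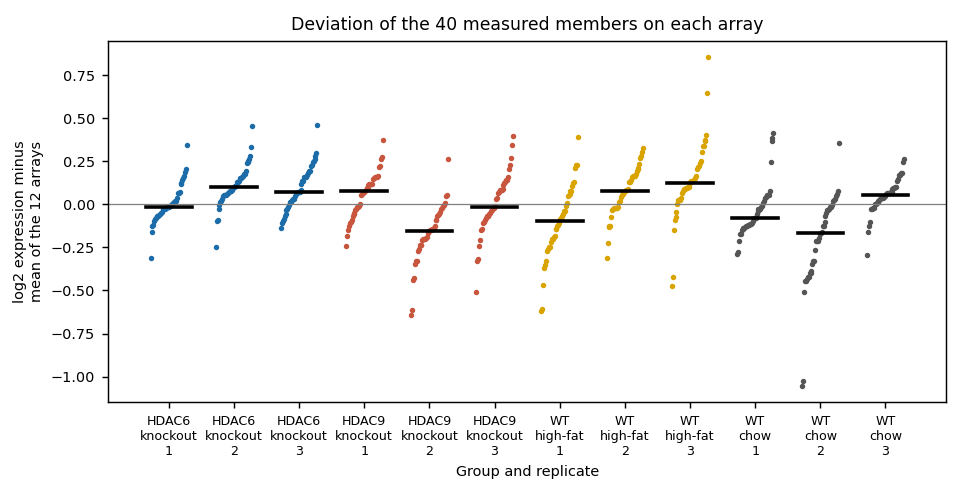
Deviation of each of the 40 measured genes (points) from its mean over the 12 arrays, by array, with the median of the 40 as a black line. Arrays run from HDAC6 knockout through HDAC9 knockout and high-fat to chow. The medians are -0.15 on HDAC9 knockout replicate 2, -0.097 on high-fat replicate 1 and -0.17 on chow replicate 2, the 3 lowest.

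Low values of many members fell on the same arrays within groups. Chow replicate 2 was the lowest chow array for 25 of 40 members (62.5%), against 30.9% of all genes, and high-fat replicate 1 was the lowest high-fat array for 33 (82.5%), against 38.1% of all genes. HDAC9 knockout replicate 2 was lowest for 26 members (65%), against 32.8% of all genes, and HDAC6 knockout replicate 1 for 24 (60%), against 35.6%. The median within-group SD of a member was 0.10 in HDAC6 knockout, 0.16 in HDAC9 knockout, 0.15 in high-fat and 0.18 in chow livers. The deviations on chow replicate 2 were not even across pathways: the medians were -0.41 for Agxt, Got1, Got2 and Gpt, -0.39 for tyrosine and -0.32 for histidine enzymes, but -0.043 for the urea cycle. On that array the list of fasting and glucagon response genes had a median deviation of -0.46, and that of hepatocyte markers -0.018.

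**Figure D5:**
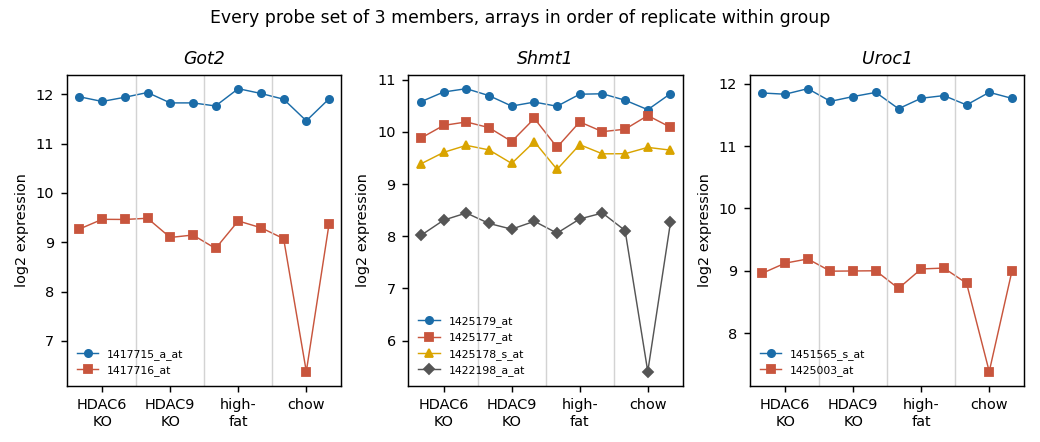
Log2 expression of every probe set of Got2, Shmt1 and Uroc1 on the 12 arrays, in order of replicate within HDAC6 knockout, HDAC9 knockout, high-fat and chow livers. In each gene 1 probe set drops on chow replicate 2, to 6.38, 5.41 and 7.38, while the probe set used for the gene does not drop by a like amount.

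Probe sets of a gene disagreed on chow replicate 2. Of the 40 members, 9 had several probe sets, 22 in all. A second Got2 probe set read 6.38 on chow replicate 2 and 8.87 to 9.49 on the other arrays, whereas the probe set used read 11.46 there and 11.76 to 12.12 elsewhere. Differences of Got2 from chow in HDAC6 knockout, HDAC9 knockout and high-fat livers were therefore 1.13, 0.97 and 0.93 by the second probe set, and 0.16, 0.14 and 0.21 by the one used. Another probe set of Shmt1 (serine hydroxymethyltransferase) read 5.41 on chow replicate 2 and 8.02 to 8.45 on the other arrays, and that of Uroc1 read 7.38 against 8.72 to 9.19. Of the 53 probe sets of members, these 3 lay more than 1 log2 unit below all other arrays on chow replicate 2, and 0 did so on any other array. Got1 and Aldh4a1, with 1 probe set each, had no second reading.

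Beyond the 40 genes, 54 of 69 other enzymes and transporters of amino acid metabolism were measured, and 0 passed in any of the 6 comparisons (limma). Of these 54, 2 in HDAC6 knockout, 3 in HDAC9 knockout and 8 in high-fat livers reached an unadjusted p under 0.05 against chow. The shares of all genes that did so were 5.77%, 6.08% and 8.48% in the same order. The medians of the list were 0.046, -0.023 and 0.055, against -0.014, -0.014 and -0.010 over all genes. In HDAC6 knockout livers the 4 of smallest p were Hao1 (-0.52), Slc38a3 (0.29), Qprt (0.27) and Slc3a1 (0.40). In HDAC9 knockout livers they were Hao1 (-0.45), Slc3a1 (0.74), Gch1 (-0.55) and Acadsb (-0.17), and in high-fat livers Slc38a3 (0.50), Qprt (0.45), Ido2 (-0.40) and Slc38a2 (0.42), all as log2 fold changes against chow that did not pass. Hao1, the liver oxidase that makes glyoxylate, the substrate of Agxt, read 10.89, 10.67 and 10.31 in HDAC6 knockout and 10.84, 10.62 and 10.63 in HDAC9 knockout livers, against 11.19, 11.11 and 11.14 in chow livers. Slc38a3, the hepatocyte glutamine transporter, read 12.05, 12.52 and 12.66 in high-fat livers, against 11.86, 11.89 and 11.98 in chow livers.

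Of 16 regulators of amino acid catabolism 14 were measured, and 1 passed, Cebpb, a transcription factor of the C/EBP family. Cebpb read 10.89, 10.99 and 11.09 in high-fat livers, against 10.41, 10.10 and 10.49 in HDAC6 knockout livers and 10.39, 10.48 and 10.30 in HDAC9 knockout livers. It rose 1.58-fold against HDAC6 knockout (log2 fold change 0.66, SE 0.109, adjusted p = 0.0245) and 1.52-fold against HDAC9 knockout livers (0.60, adjusted p = 0.0309). Over the settings and arrays tried, the adjusted p ran from 0.020 to 0.400 against HDAC6 knockout and from 0.024 to 0.287 against HDAC9 knockout livers. The highest values came with the mean of all probe sets of the gene. Against HDAC6 knockout livers the call also ended without high-fat replicates 2 or 3 or HDAC6 knockout replicates 1 or 2 (adjusted p from 0.0641 to 0.133). Against HDAC9 knockout livers it also ended in a fit of only these 2 groups (0.0560) and without any 1 high-fat array or HDAC9 knockout replicates 2 or 3 (0.0528 to 0.149). Against chow, with values of 10.53, 10.37 and 10.61, the difference of 0.49 did not pass (adjusted p = 0.109). The other high-fat differences of smallest p against chow were Gcgr, the glucagon receptor (0.27), Foxo1 (-0.32) and Tsc22d3 (0.38). In HDAC6 knockout livers they were Hnf4a (-0.20), Tsc22d3 (-0.27), Ddit3 (-0.23) and Cebpb (-0.17), and in HDAC9 knockout livers Hnf4a (-0.20), Gcgr (0.22), Atf4 (0.15) and Ddit3 (-0.18). None of these passed.

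Genes of the fasting and glucagon response, 13 of 14 measured, had 1 that passed. G6pc, the enzyme that releases glucose from the liver, rose 1.88-fold in high-fat livers (log2 fold change 0.91, SE 0.170, adjusted p = 0.0446). It read 11.50, 12.10 and 11.48 in high-fat livers, against 10.69, 10.71 and 10.94 in chow livers. The call ended without high-fat replicate 1 or 2 or any single chow array (adjusted p from 0.0553 to 0.163) and under 3 other settings (0.0534 to 0.0614). G6pc read 11.77, 11.49 and 11.30 in HDAC6 knockout and 11.74, 11.42 and 11.25 in HDAC9 knockout livers, without overlap with chow, and the differences of 0.74 and 0.69 did not pass. Igfbp1, an insulin-repressed secreted protein, had differences of 0.85 in HDAC6 knockout, 0.92 in HDAC9 knockout and 1.12 in high-fat livers that did not pass. The remaining genes of smallest p, which also did not pass, were Nr4a1 (0.36) and Irs2 (0.59) in HDAC6 knockout, Nr4a1 (0.48) and Sik1 (0.36) in HDAC9 knockout, and Nr4a1 (0.54) and Pdk4 (-1.18) in high-fat livers.

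The clock list, measured for 13 of 13 genes, was read because Tat and several other members follow the time of day and harvest times are not given. Against chow, an unadjusted p under 0.05 (limma) was reached by 7 in high-fat (8.48% of all genes), 1 in HDAC6 knockout (5.77%) and 0 in HDAC9 knockout livers (6.08%). High-fat livers had 8 against HDAC6 knockout (7.27% of all genes) and 10 against HDAC9 knockout livers (8.1%). Nfil3, a repressor of clock output, was the 1 gene that passed, at 7.66, 7.82 and 7.32 in high-fat livers, against 9.17, 8.71 and 9.20 in HDAC9 knockout livers (log2 fold change -1.43, adjusted p = 0.0243). That call ended with a robust prior (adjusted p = 0.0595) and without high-fat replicate 1 or 3 or HDAC9 knockout replicate 3 (0.0881 to 0.118). Against chow, the genes of smallest p in high-fat livers were Nfil3 (-1.20), Nr1d1 (0.89), Arntl (-1.13) and Dbp (2.27), and none passed. In HDAC6 knockout livers they were Nr1d1 (0.80), Npas2 (0.59), Per2 (-0.40) and Hlf (-0.16), and in HDAC9 knockout livers Tef (-0.47), Npas2 (0.65), Nr1d2 (-0.41) and Dbp (-0.73), also short of the threshold. Some clock genes differed between arrays of a group. Dbp read 5.33, 8.10 and 5.85 in chow and 5.60, 6.25 and 8.19 in HDAC6 knockout livers. Npas2 read 6.40, 4.83 and 6.29 in chow and 6.89, 5.21 and 7.37 in HDAC9 knockout livers. The part of the clock in the levels of the members was not tested.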

How the data were processed

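RNA from whole liver was measured on 12 arrays, 3 in each of 4 groups. The deposited values are log2 expression per probe set, which the authors made with RMA, per the submitters' processing notes. The software, chip definition and build behind them are not given in the sources used here. They were used as they stand.

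A platform annotation gave 20380 of 22626 probe sets 1 gene symbol, 691 several and 1555 none. Genes were read from probe sets with 1 symbol, and where a gene had several the one with the highest mean over the 12 arrays was used. Differences between groups were fitted with limma 3.58.1 in R 4.3.3 (lmFit and eBayes with a mean-variance trend, 4 group means over 12 arrays), with Benjamini-Hochberg adjustment over 12393 genes and a threshold of 0.05. All tests were two-sided, and the number of arrays limits their precision. With 3 arrays against 3 an exact permutation test cannot give a p under 0.1. The procedure was tested on simulated data. Figures used Python 3.11.15, pandas 2.3.3 and matplotlib 3.10.9.

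The members, the other gene lists and the tests were chosen with earlier results of these data known. A fold change with its test is given for members past the threshold and, against chow, for up to 2 members of a pathway with the smallest unadjusted p under 0.05. For the other lists, genes past the threshold and, against chow, the 4 of smallest p are named. Each fit was repeated with no trend in the variance prior, with a robust prior, on only the 2 groups compared, after quantile normalization, after centring on medians, without genes below the 25th percentile of mean expression, on the mean of a gene's probe sets, without probe sets whose suffix marks shared probes, with a replicate block, and without each array in turn. The removal of HDAC9 knockout replicate 2 and chow replicate 2 together was added after seeing the data.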

Additional observations from a re-analysis of the deposited data

How the results depend on the processing

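The count of members past the threshold was 0 in every comparison when single arrays were left out, and 0 under every other alternative run in 5 of the 6 comparisons (limma). The exception was high-fat against HDAC6 knockout livers, where the count was 1, Hal, with a robust prior, after quantile normalization, after removal of probe sets with shared probes, with the replicate block and in a fit of only the 2 groups compared, and 0 otherwise. The adjusted p of Hal there ran from 0.024 to 0.225. The replicate block changed no other count of members past the threshold. The labels do not say whether same-numbered arrays belong together. Deviations of same-numbered arrays from their group means correlated between -0.15 and 0.15, which with 3 arrays per group cannot show whether they do. The median log2 fold change of the members ran, when single arrays were left out, from 0.052 to 0.203 in HDAC6 knockout, from -0.043 to 0.072 in HDAC9 knockout and from 0.021 to 0.136 in high-fat livers, all against chow. It ran from -0.130 to -0.046 in HDAC9 knockout against HDAC6 knockout livers, from -0.078 to 0.055 in high-fat against HDAC6 knockout livers and from -0.0043 to 0.155 in high-fat against HDAC9 knockout livers. The cause of these shifts was not tested. Ass1, Sds, Gls2 and Amt were not analysed here.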
